A study of Mus musculus with 36 samples.

Results

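Plasma microRNAs (miRNAs) were compared between 4 mice with a measured tumour burden above 0 and 8 mice with a burden of exactly 0, which are 12 of the 36 samples of a study of the MMTV-NeuT mouse, a model of spontaneous mammary cancer. The mice were chosen from the sample labels alone: all belonged to batch 1 (23 samples) and had a recorded burden, and mice without a recorded value were left out. Each sample was 1 single-colour Agilent array of total RNA from the plasma of 1 female BALB/c mouse, drawn into EDTA from the heart at death. In NeuT+ mice the MMTV promoter drives an activated rat Erbb2 (neu) oncogene, mainly in mammary epithelium, while NeuT- mice were siblings without the transgene.

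The 4 mice with burden were all NeuT+. At 6 weeks of age their burdens were 8615 and 54824, and at 12 weeks they were 114730 and 192071. No unit for the burden is stated in the labels, and the mice are named below by these values. The 8 mice at 0 were 7 NeuT- mice (3 of 6 weeks, 3 of 12 weeks and 1 of 24 weeks) and 1 NeuT+ mouse of 6 weeks. The lesions were labelled severe dysplasia in the 8615 and 192071 mice and early carcinoma in the 54824 and 114730 mice, and 2 of the NeuT- mice carried a label of mild or moderate dysplasia despite a burden of 0. Burden and transgene therefore coincide in 11 of the 12 mice and cannot be told apart here. All 12 plasma samples were labelled as haemolysed.

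A miRNA is a short RNA that guides Argonaute proteins to messenger RNAs, mostly through its seed, the bases just after its first. Cells release miRNAs into blood in vesicles and protein complexes, so plasma holds a mixture from many tissues, in which blood cells, above all erythrocytes, contribute much of the total. Some miRNAs are made almost only in 1 kind of tissue, such as miR-1a, miR-133a, miR-133b and miR-206 in muscle, miR-122 in liver and miR-451a in red cells. In bulk plasma, release by more cells and release of more RNA per cell cannot be told apart.

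The sequences of the miRNAs on which the results turn are shown first, because 3 of them are near copies of each other and 2 are neighbours in the genome. They come from RefSeq (GRCm38.p6), where 218 of the 270 tested miRNAs were matched by name. Capitals mark the seed, bases 2 to 8 from the 5′ end. The 13 sequences have 13 different seeds.
miR-378b: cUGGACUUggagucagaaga
miR-378c: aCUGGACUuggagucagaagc
miR-378d: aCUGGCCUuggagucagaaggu
miR-133b-3p: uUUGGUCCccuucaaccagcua
miR-877-5p: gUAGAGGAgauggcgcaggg
miR-6391: uGAGGCACgggaggacaaugu
miR-671-5p: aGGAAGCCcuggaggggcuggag
miR-2861: gGGGCCUGgcggcgggcgg
miR-344c-5p: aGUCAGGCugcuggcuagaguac
miR-547-5p: cACUUGAGgauguaccaccca
miR-6394: uCCCUGAGuggggccaggucu
miR-451a: aAACCGUUaccauuacugaguu
miR-144-3p: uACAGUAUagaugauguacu

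The 3 miR-378 sequences differ in where they start and in a few bases. The longest run shared by miR-378b and miR-378c was 19 bases, and that shared by miR-378c and miR-378d was 14 bases. Whether their probes bind each other's miRNA was not tested. miR-378b lies at chr11:88352839-88352858 on the plus strand, within the extent of Msi2, and miR-378c at chr14:46954905-46954925 on the minus strand, within that of Samd4. miR-133b-3p lies at chr1:20682834-20682855 on the plus strand, within the muscle transcript Lincmd1. miR-877-5p lies at chr17:35960795-35960814 on the minus strand, within Abcf1, where the table used gives gene extents but not exons. miR-144-3p and miR-451a lie on the plus strand of chromosome 11 and start 139 bases apart, the known erythroid cluster. The seed of miR-6394 was also that of miR-125a-5p and miR-125b-5p. miR-133b-3p was itself not tested.

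Of the 1247 miRNAs on the array, 143 to 522 were called detected per array and 722 were detected on none. The mice with burden had 143 and 169 detected miRNAs at 6 weeks and 237 and 522 at 12 weeks (192071 and 114730 mouse), against 198, 226, 244 and 256 at 6 weeks, 258, 266 and 274 at 12 weeks and 213 at 24 weeks in the mice at 0. Both 6-week mice with burden thus lay below all mice at 0, and the 114730 mouse above all of them. The means of 268 ± 174 (SD, n = 4) and 242 ± 27.0 (SD, n = 8) gave a two-sided exact permutation p of 0.760 over all splits of 4 against 8, which can go no lower than 0.00202 (adjusted over 4 array measures, 0.893). Without the 114730 mouse, which alone held 224 of the 226 miRNAs detected on exactly 1 array, the difference was -58.9 miRNAs (exact permutation p = 0.0242). That mouse had the highest count of all, and leaving out any other mouse gave an exact permutation p from 0.321 to 0.848. Plasma absorbance in the haemoglobin band was 0.329 ± 0.135 and 0.346 ± 0.0960 in the 2 groups (SD, n = 4 and 8; exact permutation p = 0.806). The number of arrays limits the precision of what follows.

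Levels are given as log2 of the scaled signal: the brightest probe's signal divided by the array's 75th percentile over the 141 miRNAs detected on all 12 arrays. A level of 0 is therefore that percentile, and signals under a floor of -4.29 were set to it, so that values at the floor have no order. Tests covered the 270 miRNAs detected on at least 4 of the 12 arrays. Levels are compared between mice for 1 miRNA and not between miRNAs.

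Over all 12 mice, no miRNA passed in the comparison of mice with and without burden. With limma, 0 of 270 (0%) passed an adjusted p of 0.05, and the smallest adjusted p was 0.537. At an unadjusted p under 0.05 there were 16 (5.93%), 14 higher (5.19%) and 2 lower (0.741%) with burden. For 0 miRNAs (0%) did all 4 mice with burden lie above, or all below, the 8 mice at 0. The median difference over all 270 was -0.03, with 118 positive and 152 negative. The plot of difference against p shows miR-1a-3p standing far to the right of all other miRNAs in size, with a wide error.

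**Figure D1:**
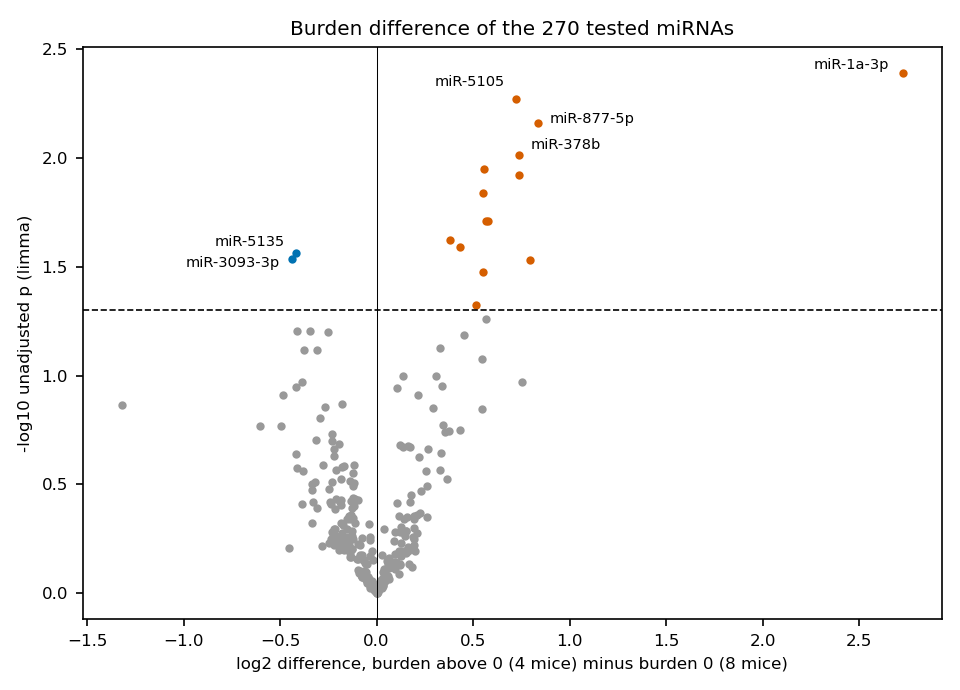
Difference in mean log2 scaled signal, mice with burden above 0 minus mice at 0 (horizontal axis), against -log10 of the unadjusted limma p (vertical axis) for the 270 tested miRNAs; the dashed line is an unadjusted p of 0.05. Of the 16 points above the line, 14 lie to the right, miR-1a-3p farthest at 2.73, and none passed after adjustment.

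The largest difference was in miR-1a-3p, a miRNA of skeletal and cardiac muscle. Its levels with burden were -0.68 and -2.66 at 6 weeks (8615 and 54824 mice) and 0.85 and 0.98 at 12 weeks (114730 and 192071 mice). In the 8 mice at 0 it ranged from the floor, -4.29, over a median of -3.50 to -0.98. It was detected in 4 of 4 mice with burden and in 5 of 8 without. The groups overlapped, since the 54824 mouse lay below 2 of the 12-week mice and 1 of the 6-week mice at 0. The difference of 2.73 ± 0.79 (SE) did not pass in limma (adjusted p = 0.537). Without the 54824 mouse, the lowest of the 4 with burden, it was 3.49 and passed (limma adjusted p = 0.0447). It did not pass on leaving out any other mouse.

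Within each age the order was plainer. At 6 weeks the 4 mice at 0 had -2.30, -4.29, -4.29 and -4.14, where the third was the NeuT+ mouse without burden; the 8615 mouse lay above all 4 of these and the 54824 mouse above all but the first. At 12 weeks the 3 mice at 0 had -2.87, -0.98 and -1.70, below both mice with burden. The 24-week NeuT- mouse was at the floor. In a fit with age, which left out the 24-week mouse, the difference was 2.08 ± 0.71 at 6 weeks (adjusted p = 0.813) and 2.76 ± 0.75 at 12 weeks (SE, 2 mice against 3; limma adjusted p = 0.0376). The difference between these differences, 0.68 ± 1.03 (SE), did not pass (adjusted p = 0.696). The call at 12 weeks was lost on leaving out any of 6 of the 11 mice: the 192071 mouse (adjusted p = 0.167), the 114730 mouse (0.103), or 1 of 4 mice at 0 (0.0564 to 0.128), with differences from 2.25 to 2.84. It was also lost in 3 of 14 processing alternatives, with the floor halved (0.0734) or doubled (0.0597) and in limma without trend and robust settings (0.0537). For the separation of 2 mice from 3 at 12 weeks, here and below, the share of all 270 tested miRNAs was not counted. Such separations are given as description only.

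The muscle list held 6 miRNAs, of which 1, miR-1a-3p, was detected often enough to be tested, 3 were detected on fewer arrays, and 2, miR-208a-3p and miR-499-5p, which belong to cardiac and slow muscle, were detected on none. The miR-133 pair, which is made together with miR-1 and miR-206 in muscle, was detected in the same 3 mice. miR-133a-3p stood at -1.95 and -1.31 in the 114730 and 192071 mice and at -4.05 in 1 NeuT- mouse of 12 weeks, and at the floor in the remaining 9. miR-133b-3p stood at -1.69, -1.19 and -3.62 in the same 3 mice. miR-206-3p was detected only in the 114730 mouse and in the NeuT+ mouse without burden, at the floor or near it (-4.16). The 3 mice with detected miR-133 were thus the ones with the highest 3 levels of miR-1a-3p among the 12-week mice. At 6 weeks the 8615 mouse had miR-1a-3p at -0.68, above the -0.98 of that NeuT- mouse, but had neither miR-133 called detected. The blood was drawn by puncture through the heart muscle, and how much muscle RNA entered each sample was not tested. miR-133a, miR-133b and miR-206 were chosen for this account after their values were seen.

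**Figure D2:**
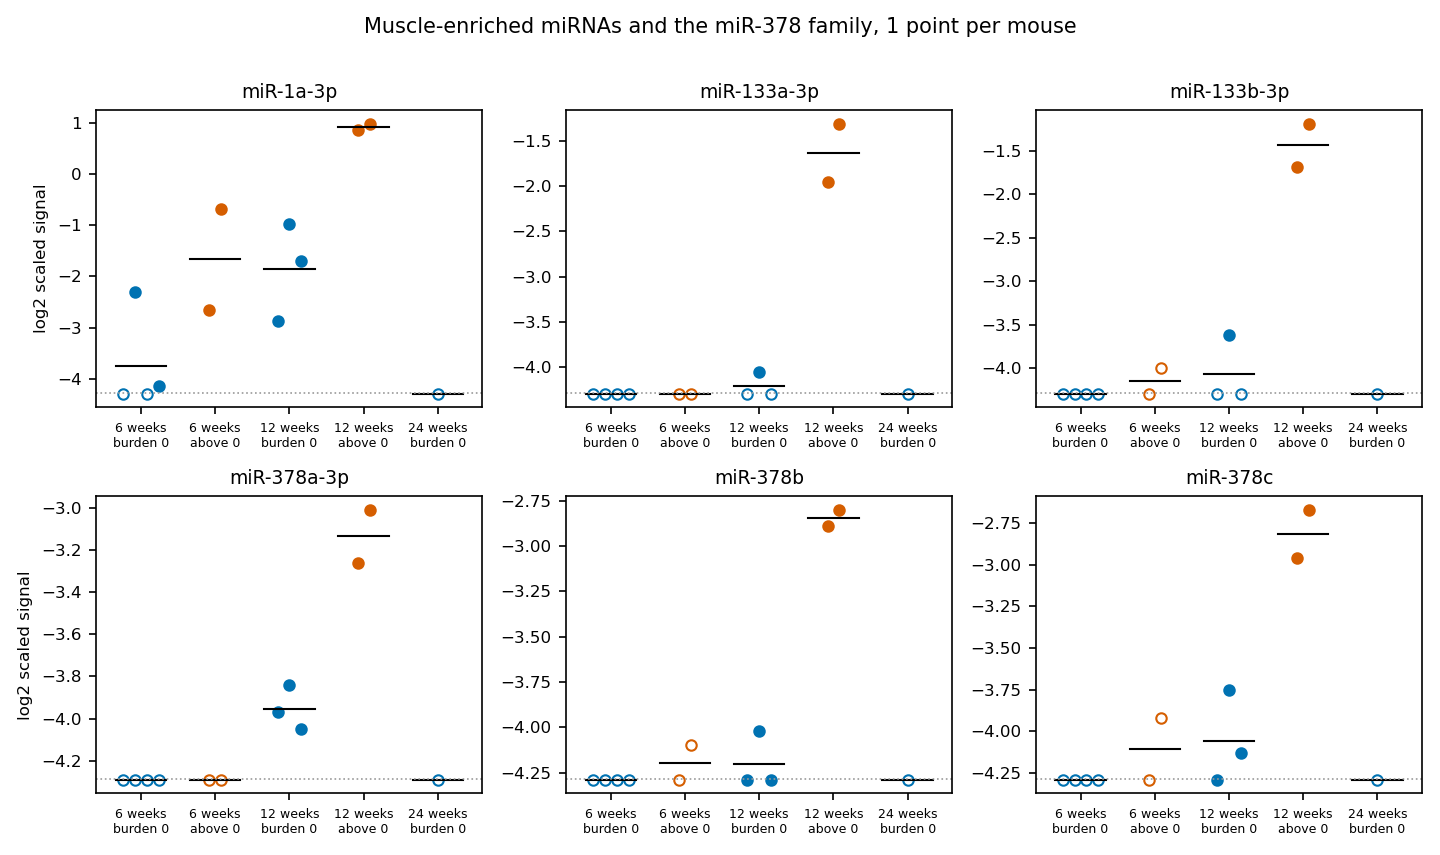
log2 scaled signal (vertical axis) of miR-1a-3p, miR-133a-3p, miR-133b-3p, miR-378a-3p, miR-378b and miR-378c by age in weeks and burden group (orange, burden above 0; blue, burden 0), 1 point per mouse, filled where detected and open where not; bars are means and the dotted line is the floor at -4.29. Both 12-week mice with burden lie above the 3 at burden 0 in every panel, while at 6 weeks the miR-133 and miR-378 points lie at the floor or within 0.4 of it.

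The miR-378 miRNAs, whose best known member, miR-378a, is encoded in the metabolic coactivator gene Ppargc1b and is abundant in muscle and brown fat, showed the same split by age. miR-378b was at -2.89 and -2.80 in the 114730 and 192071 mice and at -4.29, -4.02 and -4.29 in the 12-week mice at 0. miR-378c was at -2.96 and -2.67 against -4.29, -3.75 and -4.13, and miR-378a-3p at -3.26 and -3.01 against -3.97, -3.84 and -4.05. In all 3, both mice with burden lay above the 3 without, again a description whose share over all tested miRNAs was not counted. At 12 weeks the differences were 1.35 ± 0.12 for miR-378b (limma adjusted p = 0.000117), 1.24 ± 0.18 for miR-378c (0.00181) and 0.82 ± 0.11 for miR-378a-3p (0.00147; SE, 2 mice against 3). miR-378d, named after its values were seen, rose by 0.90 ± 0.20 (adjusted p = 0.0194), from -3.42, -3.12 and -3.19 to -2.39 and -2.29. These sizes, with their SE and p, depend on the floor, at which miR-378b stood in 2 of the 3 mice of 12 weeks at 0 and miR-378c in 1. The SE and p also draw on the 6-week mice in the fit. There all 4 mice at 0 were at the floor for miR-378a-3p, miR-378b and miR-378c, which makes the spread small. With the 12-week mice fitted alone, miR-378b had a limma adjusted p of 0.00941. With the floor doubled the differences were 0.44 for miR-378b, 0.47 for miR-378c and 0.15 for miR-378a-3p, and with normexp 0.42, 0.42 and 0.18. The call of miR-378a-3p was lost under both (adjusted p = 0.211 and 0.268), and that of miR-378d with normexp (0.38, adjusted p = 0.0655). None of miR-378a-3p, miR-378b and miR-378c was detected in any of the 6 mice of 6 weeks or in the 24-week mouse, so no fold is given there. The same 2 mice of 12 weeks also had the highest miR-1a-3p and miR-133 levels, whose part in the miR-378 calls was not tested.

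The effect of burden was then tested for a difference between the ages, over the 11 mice of 6 or 12 weeks. It differed for 14 of 270 miRNAs (5.19%), more positive at 12 than at 6 weeks in 10 (3.7%) and more negative in 4 (1.48%), and 58 (21.5%) had an unadjusted p under 0.05. The effect at 12 weeks alone, a comparison added after values had been seen, passed for 32 (11.9%), 25 higher (9.26%) and 7 lower (2.59%) with burden, and 80 (29.6%) had an unadjusted p under 0.05. At 6 weeks 0 passed (0%), and 11 (4.07%) had an unadjusted p under 0.05. Of the 14 miRNAs, 12 were also among the 32. Other processing called other sets between the ages. These split 6 and 0 without scaling between arrays or with scaling on all miRNAs, with 3 of the 14 in each. They split 34 and 0 in the deposited log2 table (4 of the 14) and 11 and 123 with normexp background correction (7 of the 14). The 14 and the 32 rest on 2 mice with burden at each age. Leaving out 1 mouse moved the 14 to between 2 and 26 and the 32 to between 16 and 36.

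**Figure D3:**
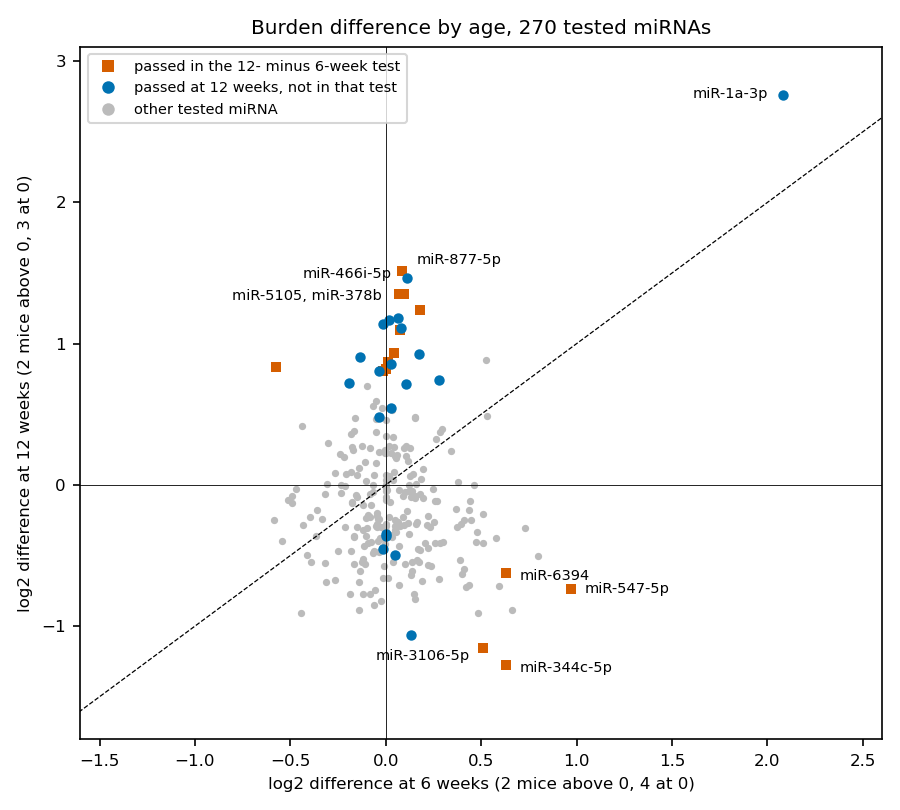
Burden effect at 6 weeks (horizontal axis) against that at 12 weeks (vertical axis), both as differences in log2 scaled signal, for the 270 tested miRNAs. Orange squares are the 14 that differed between the ages, blue points passed at 12 weeks but not in the test between ages, and the dashed line marks equal effects; miR-1a-3p, at 2.08 and 2.76, lies close to that line.

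Besides miR-378a-3p, miR-378b and miR-378c, the 10 miRNAs with a more positive effect at 12 weeks were miR-5105, miR-877-5p, miR-6391, miR-671-5p, miR-2861, miR-328-5p and miR-139-3p. For 6 of the 10, the 3 miR-378 members, miR-877-5p, miR-6391 and miR-139-3p, neither 6-week mouse with burden had a detected signal, so the level there is only an upper bound and the size of the difference between ages depends on the floor. The 3 miR-378 members also passed the detection filter through the 12-week mice alone. miR-877-5p, a mirtron (a miRNA spliced from a short intron, here of Abcf1), was at -2.56 and -2.42 in the 114730 and 192071 mice and at -4.05, -3.82 and -4.15 in the 12-week mice at 0. At 6 weeks it was at -3.85 and -3.52 with burden, where it was not called detected, and at -3.86, -4.03, -3.53 and -3.65 without. The groups were apart at 12 weeks and overlapped at 6 weeks, and the effect was 1.52 ± 0.20 at 12 weeks (SE; limma adjusted p = 0.00103) against 0.08 ± 0.19 at 6 weeks. The difference between ages was 1.43 ± 0.27 (adjusted p = 0.0170).

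miR-5105 was bright on every array and so does not depend on the floor. It was at 1.32 and 1.68 in the 114730 and 192071 mice and at 0.16, 0.14 and 0.14 in the 12-week mice at 0. At 6 weeks it was at 0.49 and 0.80 with burden and at 0.55, 0.82, 0.37 and 0.53 without. Its effect was 1.35 ± 0.16 at 12 weeks (SE; limma adjusted p = 0.000873) and 0.07 ± 0.16 at 6 weeks, a difference of 1.28 ± 0.23 (adjusted p = 0.0170). miR-671-5p, within the extent of Chpf2 at chr5:24592132-24592154 on the plus strand, was at -1.42 and -1.25 with burden and at -2.22, -2.25 and -2.35 without at 12 weeks. At 6 weeks it was at -2.55 and -2.36 with burden and between -2.56 and -2.43 without. Its effect at 12 weeks was 0.94 ± 0.14 (SE; adjusted p = 0.00234).

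For 5 of the 10, miR-328-5p, miR-2861, miR-5105, miR-671-5p and miR-378a-3p, the levels at burden 0 did not overlap between the ages either, a description with no test. The same was true of miRNAs outside these calls, such as miR-451a, miR-21a-5p and miR-223-3p. The share over all tested miRNAs was not counted, so the pattern is not read as particular to these calls. miR-328-5p stood between -1.09 and -0.91 in all 4 mice with burden and in the 6-week mice at 0 between -1.03 and -0.82, but at -1.98, -1.75 and -1.69 in the 12-week mice at 0. miR-2861 stood at 0.62 and 0.96 with burden at 12 weeks, near the 0.40 and 0.50 at 6 weeks, while the mice at 0 had means of 0.43 at 6 weeks and -0.08 at 12 weeks. miR-139-3p ran in opposite directions, -0.57 ± 0.22 at 6 weeks and 0.83 ± 0.23 at 12 weeks (SE; adjusted p = 0.932 and 0.0449), and its call at 12 weeks held in 4 of 14 processing alternatives and for 3 of 11 left-out mice.

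The 4 miRNAs with a more negative effect at 12 weeks were miR-344c-5p, miR-547-5p, miR-3106-5p and miR-6394. miR-344c-5p was at -3.73 and -3.47 in the 114730 and 192071 mice and at -2.38, -2.21 and -2.40 in the 12-week mice at 0, an effect of -1.27 ± 0.23 (SE; limma adjusted p = 0.00643). At 6 weeks it was at -2.22 and -1.73 with burden and at -2.84, -2.86, -2.31 and -2.40 without, an effect of 0.63 ± 0.21 (adjusted p = 0.813). Here both mice with burden lay above all 4 at 0, the opposite of 12 weeks. The difference between ages was -1.90 ± 0.31 (adjusted p = 0.0155). miR-547-5p and miR-6394 had the same signs, 0.97 and 0.63 at 6 weeks and -0.74 and -0.62 at 12 weeks, and neither passed at either age.

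The calls of miR-378b, miR-378c and miR-877-5p at 12 weeks held in 13 of 14 processing alternatives, all but the deposited log2 table, and on leaving out each of the 11 mice, but their sizes did not. miR-877-5p came down from 1.52 to 0.79 with the floor doubled and to 0.59 with normexp, as the miR-378 members did, whereas miR-5105 stayed at 1.35 and 1.29. Between ages, miR-378b held in 10 of 13 alternatives and for each left-out mouse, but miR-671-5p, miR-2861, miR-328-5p, miR-3106-5p and miR-6394 held for only 2 of the 11 left-out mice. The other miRNAs that rose at 12 weeks, named after their values were seen, were led by miR-466i-5p (1.46 ± 0.34, adjusted p = 0.0213), miR-5128 (1.18 ± 0.22, 0.00843), miR-3077-5p (1.17 ± 0.24, 0.0122) and miR-574-5p (1.14 ± 0.28, 0.0273; SE, limma). The strongest fall beside miR-344c-5p and miR-3106-5p was in miR-6408, by 1.06 ± 0.24 on the log2 scale (adjusted p = 0.0197).

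**Figure D4:**
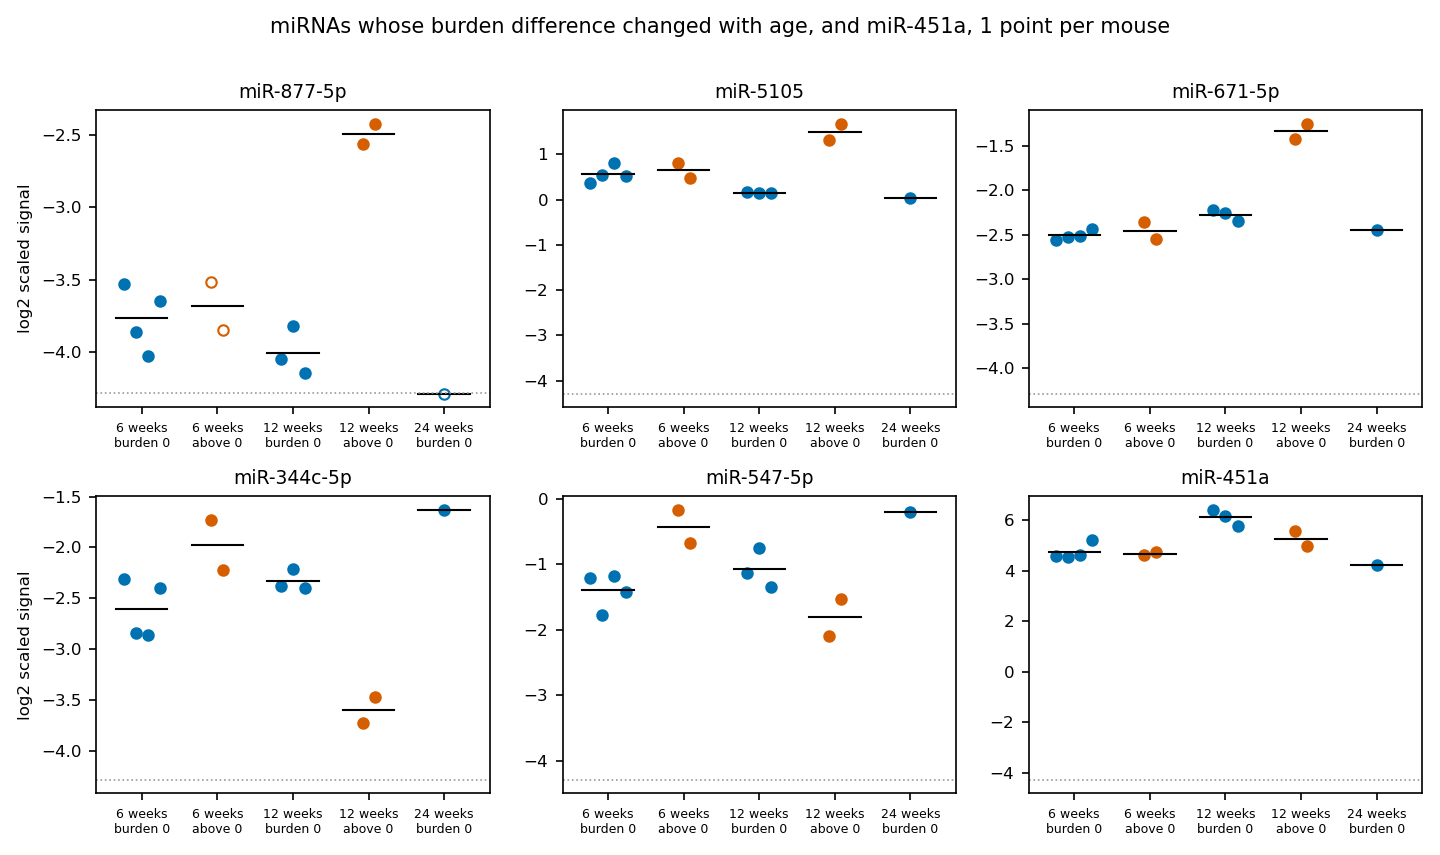
log2 scaled signal (vertical axis) of miR-877-5p, miR-5105, miR-671-5p, miR-344c-5p, miR-547-5p and miR-451a by age in weeks and burden group (orange, burden above 0; blue, burden 0), 1 point per mouse, filled where detected and open where not; bars are means and the dotted line is the floor. miR-877-5p, miR-5105 and miR-671-5p separate the groups upwards at 12 weeks and miR-344c-5p downwards, whereas miR-451a at 12 weeks lies between 4.99 and 5.57 with burden and between 5.79 and 6.42 without.

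Several array properties moved with these calls. The median GC content of the probe sequence was 70.3% for the 10 miRNAs with a more positive effect at 12 weeks, 56.1% for the 4 with a more negative one and 57.1% for all 270. With each array's trend in GC removed, 8 of the 14 passed (5 and 3), and 25 passed at 12 weeks, 24 of them among the 32. The 12-week mice with burden were scanned on different days, and the 3 of 12 weeks at 0 all on the day of the 114730 mouse. Within that day, the 114730 mouse minus the mean of those 3 was 2.70 for miR-1a-3p, 1.45 for miR-877-5p and 1.17 for miR-5105, and on the 1 slide holding mice of 12 weeks from both groups these were 1.83, 1.26 and 1.18. On the other scan days, each with 1 mouse of 6 weeks per group, the difference in miR-1a-3p was 1.62 on one and at least 1.63 on the other, where the mouse at 0 was at the floor. The 114730 mouse had the highest absorbance (0.514) and the 192071 mouse nearly the lowest (0.211), against 0.386, 0.225 and 0.349 in the 12-week mice at 0. With log2 absorbance as a covariate 37 passed at 12 weeks, 31 of them among the 32. Fitting the 5 mice of 12 weeks alone gave 19, of which 16 were among the 32, including miR-378b, miR-877-5p and miR-5105 (adjusted p = 0.00941 each), miR-344c-5p (0.0118) and miR-1a-3p (0.0172).

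No erythrocyte miRNA passed in any of these comparisons. miR-451a, the most abundant miRNA of red cells, was at 4.74 and 4.61 at 6 weeks and at 5.57 and 4.99 at 12 weeks (114730 and 192071 mice). In the mice at 0 it ranged from 4.25 over a median of 4.91 to 6.42, with 6.42, 6.18 and 5.79 at 12 weeks. The groups overlapped as a whole, and at 12 weeks both mice with burden lay below all 3 at 0. The difference was -0.22 ± 0.42 over all mice (SE; limma adjusted p = 0.976), -0.06 ± 0.25 at 6 weeks and -0.85 ± 0.26 at 12 weeks (adjusted p = 0.0656). miR-144-3p, from the same cluster, had -0.82 ± 0.27 at 12 weeks (adjusted p = 0.0835) and miR-16-5p -0.69 ± 0.25 (adjusted p = 0.10).

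All 8 tested miRNAs of the erythrocyte list had a negative difference over all mice (median -0.20; all tested, -0.03) and at 12 weeks (median -0.68; all tested, -0.19), and 0 of 8 passed in either. Without scaling between arrays, 7 of the 8 were negative over all mice and 5 at 12 weeks, with a median at 12 weeks of -0.07 where all tested had 0.37, and with normexp 6 were negative over all mice. With scan day as a block the miR-451a difference over all mice was 0.18, and with quantile normalization 0.09. The mean level of the 8 ran from -0.71 to -0.08 in the 4 mice with burden and from -1.18 to 0.68 in the 8 at 0, so the ranges overlapped.

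**Figure D5:**
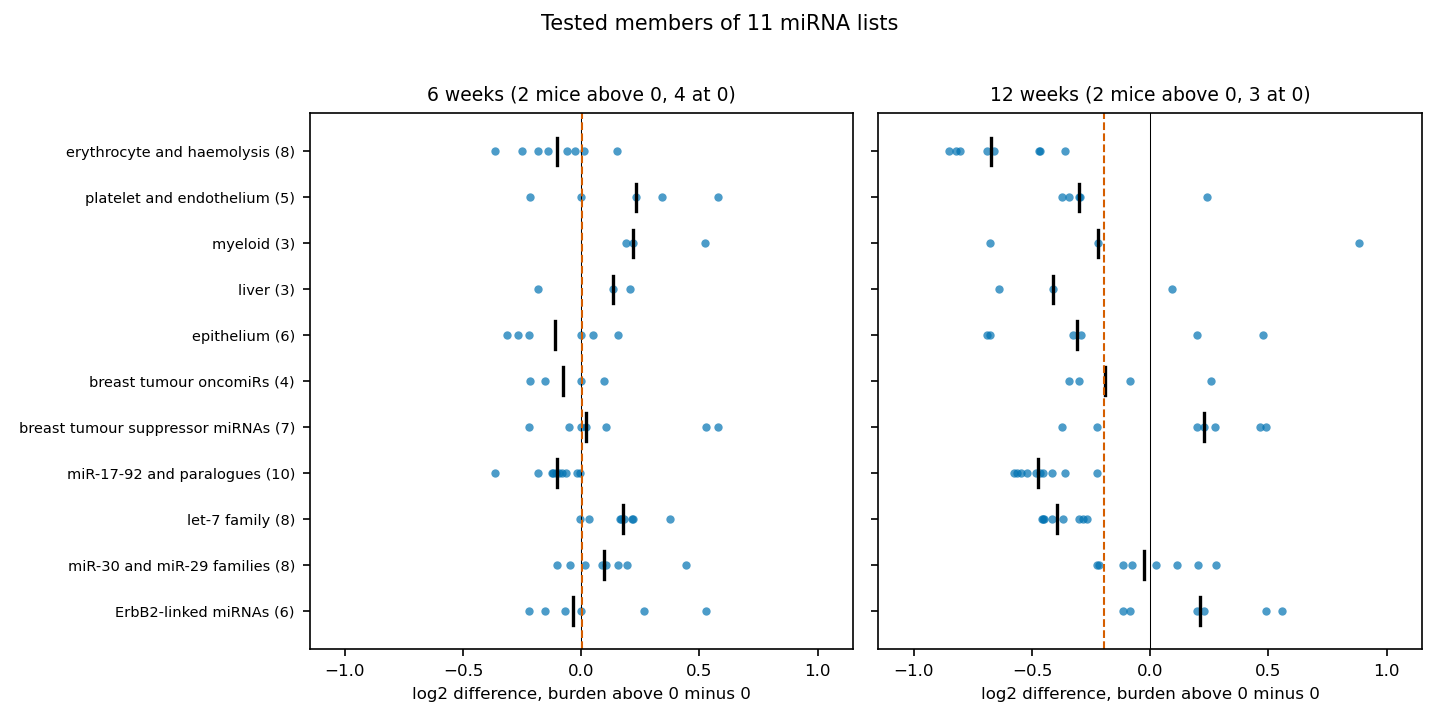
Burden effect (difference in log2 scaled signal) of the tested members of each list with at least 3 of them, at 6 and at 12 weeks, 1 point per miRNA; black bars are list medians and the orange dashed lines the medians of all 270 tested (0.003 and -0.19). Below 0 at 12 weeks lie all members of 3 lists, let-7, miR-17-92 and erythrocyte, and 180 of all 270 tested. In these 3 lists 0, 0 and 5 members lie below 0 without scaling between arrays, and 2, 7 and 7 in the deposited log2 table.

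Of all 270 tested miRNAs, 152 were negative over all mice and 180 at 12 weeks. The miR-17-92 cluster and its paralogues, tied to proliferation and also abundant in blood cells, had 10 tested members. Of these, miR-92a-3p and miR-25-3p were also on the erythrocyte list. All 10 were negative over all mice (median -0.11; 8 of 10 with median scaling or normexp) and at 12 weeks (median -0.48). One of them, miR-18a-5p, fell at 12 weeks by 0.45 ± 0.10 on the log2 scale (SE; limma adjusted p = 0.0197), but was at 0.17 without scaling. The let-7 family, which restrains proliferation and is found in most tissues, had 4 positive and 4 negative members over all mice (8 positive with median scaling or normexp, 0 with scaling on all miRNAs), 7 positive of 8 at 6 weeks (median 0.18) and 0 of 8 at 12 weeks (median -0.39), with 0 passing. Without scaling, all 10 and all 8 were positive at 12 weeks (medians 0.13 and 0.21, all tested 0.37), while 3 of 10 and 6 of 8 were positive in the deposited log2 table, so the sign did not hold.

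Lists tied to tumour tissue were short, and their numbers of calls are given without a reading. Of all 270 tested, 32 (11.9%) passed at 12 weeks. Of the 12 breast tumour suppressor miRNAs 7 were tested, with 0 passing overall or at 12 weeks. Over all mice 6 were positive and 1 negative (median 0.15), but 3 and 4 with scaling on all miRNAs. Of the 11 breast tumour oncomiRs 4 were tested, and 1, miR-222-3p, fell at 12 weeks by 0.34 ± 0.09 on the log2 scale (SE; limma adjusted p = 0.0370), a call held in 2 of 14 processing alternatives and of opposite sign without scaling (0.23). miR-21a-5p, the oncomiR most often raised in breast carcinoma, was at 0.14, 0.70, 1.18 and 1.10 in ascending order of burden and ran from 0.37 over a median of 0.91 to 1.62 without, a difference of -0.13 ± 0.25 (adjusted p = 0.976). miR-210-3p, a hypoxia marker, was detected on no array. miR-10b-5p, a metastasis-linked miRNA, and the epithelial miR-200c-3p were each called detected on 1 array, at the floor. miR-155-5p, of activated lymphocytes, was called detected on 2 arrays, the 114730 mouse and 1 mouse at 0, and was above the floor in the second only (-3.90).

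Epithelial miRNAs, which mark the cell type that carries the transgene, were 6 of 7 tested, 2 positive and 4 negative (median -0.11), with 0 passing overall or at 12 weeks. miR-200a-3p and miR-200b-3p, which maintain the epithelial state, had differences of -0.49 ± 0.29 and -0.42 ± 0.33 (SE; limma adjusted p = 0.976 for both). Both had the opposite sign between NeuT+ and NeuT- mice without a burden value, described below. Of the miRNAs linked to ErbB2, 6 were tested, 5 positive and 1 negative (median 0.14), but 3 and 3 with scaling on all miRNAs or in the deposited log2 table, with 0 passing. The largest was miR-125b-5p, which targets Erbb2 messenger RNA, at -1.91, -1.86, -0.80 and -1.05 in ascending order of burden against a range of -3.01 to -1.06 and a median of -1.94 at burden 0. The groups overlapped, and its difference of 0.55 ± 0.35 was like that at 6 weeks (0.53) and at 12 weeks (0.49).

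Among the tested blood cell, endothelial and liver markers, miR-223-3p of neutrophils and platelets had the largest difference over all mice. It was at -2.09 and -1.42 at 6 weeks and -0.29 and -0.05 at 12 weeks with burden, and in the mice at 0 it ran from -2.68 over a median of -1.65 to -0.82. Both 12-week mice with burden lay above all 8 at 0. The difference of 0.75 ± 0.44 did not pass (SE; limma adjusted p = 0.958), nor did that at 12 weeks of 0.88 ± 0.30 (adjusted p = 0.0928). The other tested myeloid miRNAs, miR-142-3p and miR-142-5p, differed by -0.04 and 0.10 over all mice and by -0.68 and -0.22 at 12 weeks. Of the 5 tested platelet and endothelial miRNAs, 1 was positive and 4 were negative at 12 weeks. miR-122-5p of liver differed by 0.06 ± 0.36, miR-126-3p of endothelium and platelets by 0.10 ± 0.33 and let-7a-5p by 0.06 ± 0.29 (adjusted p = 0.990 for each), and all 3 changed sign with the processing.

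The 5 miRNAs with the smallest p among those lower with burden were miR-5135, miR-3093-3p, miR-30c-1-3p, miR-212-3p and miR-3102-5p, with differences from -0.44 to -0.25, none of which passed (limma adjusted p = 0.569 to 0.840). miR-3102-5p was detected on all arrays, at 1.67, 1.54, 1.54 and 1.43 in ascending order of burden against 1.56 to 2.01 without. Of its 4 values, 3 with burden lay below all 8 at 0. Of the 5, miR-5135 and miR-3093-3p, were among 23 miRNAs that were detected in all 8 mice at 0 and in at most 2 of the 4 with burden, and all 23 went undetected in both 6-week mice with burden, the arrays with the fewest detected miRNAs.

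The same miRNAs were examined in 7 other batch 1 mice of 12 weeks without a burden value, 4 NeuT+ and 3 NeuT-. There 0 of 242 miRNAs (0%) passed and 0 (0%) had an unadjusted p under 0.05 in limma, with a smallest adjusted p of 0.995. These arrays were scaled on their own 147 common miRNAs, with a floor of -3.87. miR-1a-3p was at 1.35, -3.47, -2.24 and -3.26 in the NeuT+ mice and at -2.62, -2.60 and -1.61 in the NeuT- mice, a difference of 0.37 ± 1.04 (SE). The first NeuT+ mouse stood apart, and it alone had miR-133a-3p (-1.43) and miR-133b-3p (-1.33) detected and miR-378b (-2.96) and miR-378c (-3.02) above the floor. miR-5105, miR-877-5p and miR-344c-5p differed by 0.06 ± 0.26, 0.15 ± 0.31 and -0.73 ± 0.44 (SE; adjusted p = 0.995 for each). Of smallest p among those higher in NeuT+ mice were miR-200b-3p (0.67 ± 0.36), miR-200a-3p (0.66 ± 0.36) and miR-205-5p (0.46 ± 0.29). Among those lower they were miR-1957a (-0.45 ± 0.22), miR-3070b-3p (-0.41 ± 0.24) and miR-344c-5p. None of these passed (SE; limma adjusted p = 0.995 for each), and miR-200a-3p and miR-200b-3p were each detected in 1 of 3 NeuT- mice. The detection flag, which needs no floor, called miR-378c in 4 of 4 NeuT+ and 0 of 3 NeuT- mice and miR-378b in 3 of 4 and 0 of 3. It also called miR-203-3p in 4 and 0, and miR-200b-3p, miR-92a-3p and miR-378d in 4 and 1. The share of all miRNAs with such a pattern was not counted. The flag did not follow the level alone. For example, miR-6391 was called in a NeuT+ mouse at -3.77 but not in NeuT- mice at -3.42 and -3.28. The split of the flag is therefore not read as a difference between genotypes. Among the mice with a burden value, all 3 NeuT- mice of 12 weeks at 0 had miR-378b and miR-378c called detected. In the 3 held-out NeuT+ mice other than the first, the miR-133 pair, miR-378b and miR-378c were at the floor. There miR-1a-3p was not above the highest NeuT- mouse.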

How the data were processed

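Each array was read from its deposited Agilent Feature Extraction file (version 10.7.3.1, design on mm9, per the file headers), whose background-subtracted intensity and detection flag per miRNA were used. The authors' deposited log2 table, whose scaling and centring no label or header states, served as an alternative; its columns for the arrays used had medians from 2.98 to 4.56. Control spots and outlier flags (3.17% to 5.95% of spots) were left out, spots of a probe were averaged, and the brightest of up to 4 probes stood for a miRNA. Signals were divided by the array's 75th percentile over the 141 miRNAs detected on all 12 arrays and floored at the median of the arrays' 5th percentiles among detected miRNAs. miRNAs detected on at least 4 arrays were tested with limma 3.58.1 (R 4.3.3, trend and robust, statmod 1.5.0), two-sided with Benjamini-Hochberg adjustment over all tested. Single values per mouse were tested by exact permutation. The analysis was tested on simulated data.

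The 3 scan days each held both groups and were tried as a block, as were slides (7, of which 2 hold both groups). No 2 arrays held identical values; correlations over 66 pairs ran from 0.856 to 0.989. Negative-control spread was higher on the first scan day, which held 1 mouse of each group (SD 35.5 and 29.8, against 13.2 to 16.6 on the other days). Of the tested values, 14.9% were at the floor.

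Named miRNAs were those passing the burden comparison, at most 10 per direction, or else the 5 of smallest p per direction, plus fixed markers, and for the age and held-out comparisons the calls or the 3 of smallest p per direction. Single list members beyond these were named after their values were seen. The members and lists were chosen with earlier results of these data known. Contrasts within an age, their alternatives and the fit of 12-week mice alone were added after values were seen. Alternatives covered background correction, scaling, floor, filter, covariates, blocks, GC content and leaving out each mouse.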

Additional observations from a re-analysis of the deposited data

Results flagged for a closer look

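Of 66 groups of 4 to 10 values checked, 3 held 1 mouse far from the others, where chance gives about 1 in 20. In the 8 mice at burden 0, the same NeuT- mouse of 12 weeks was highest for miR-378b (-4.02, where the other 7 were at the floor) and for miR-378c (-3.75). That mouse was also the only one at 0 with miR-133a-3p and miR-133b-3p detected. In the mice with burden, the 114730 mouse was highest for miR-16-5p, at 1.90 against 1.19 to 1.22.

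The burden effect differed between 12 and 6 weeks for 14 miRNAs by limma's test of that difference, given here as log2 difference at 12 minus at 6 weeks. The miR-378 members gave 1.26 ± 0.17 (miR-378b, adjusted p = 0.00439), 1.05 ± 0.25 (miR-378c, 0.0339) and 0.82 ± 0.16 (miR-378a-3p, 0.0170; all SE). None of these 3 was detected at 6 weeks, so they passed the detection filter through the 12-week mice alone. All 4 mice of 6 weeks at burden 0 were at the floor for each. Their p between ages is therefore not read as support for a difference between ages. Their sizes depend on the floor, and over all alternatives these came down to 0.038, 0.037 and -0.17. The other positive ones were miR-877-5p at 1.43, miR-139-3p at 1.41, miR-5105 at 1.28, miR-6391 at 1.02, miR-671-5p at 0.89, miR-2861 at 0.85 and miR-328-5p at 0.82 (adjusted p from 0.0170 to 0.0412). The negative ones were miR-344c-5p at -1.90, miR-547-5p at -1.71, miR-3106-5p at -1.67 and miR-6394 at -1.25 (adjusted p from 0.0155 to 0.0339).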

How the results depend on the processing

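The burden comparison had 0 calls in all alternatives but 2: normexp background gave 6, all higher (miR-1a-3p, miR-877-5p and miR-378b among them), and leaving out the 54824 mouse gave 4 (range over left-out mice 0 to 4). The age comparison moved from 14 to 23 with absorbance (17 more positive, 6 more negative), 6 without scaling (6 and 0), 134 with normexp (11 and 123), 34 with the deposited log2 table (34 and 0), 6 with scaling on all miRNAs (6 and 0), 5 with the floor halved (2 and 3), 3 with it doubled, 26 with NeuT- mice only at 0 (15 and 11) and 8 with the GC trend removed. Leaving out 1 mouse gave 2 to 26: among mice at 0, replicates 1, 2, 5, 6, 7 and 8 gave 5, 7, 2, 4, 7 and 8, the NeuT+ mouse 26, and the 54824 mouse 3. At 12 weeks 32 became 13 without scaling (13 and 0), 2 with the deposited table (both higher), 16 on miRNAs detected on all 12 arrays (14 and 2), 12 with scaling on all miRNAs (8 and 4), 17 with the floor doubled (15 and 2) and 19 with those mice alone. Leaving out a mouse gave 16 to 36, lowest without the 12-week replicate 5 at 0 (16) and the 192071 mouse (17). The held-out genotype comparison had 0 calls except with the deposited table (43, all higher), and 0 to 0 over left-out mice. The median of all tested moved by 1.18 (age, no scaling), 1.46 (age, deposited table), 0.56 and 0.34 (12 weeks, same), -0.24 (age, normexp), 0.19 (age, scaling on all miRNAs), 0.17 and 0.19 (age and 12 weeks, floor doubled), 0.11 and 0.14 (age and 12 weeks, median scaling), and for burden by 0.12 (scan day), -0.12 (total gene signal), -0.22 (scaling on all miRNAs) and -0.23 (deposited table). The cause of these shifts was not tested.

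Single values that changed sign were these. In the burden comparison, the deposited table gave -0.12 for miR-5105, -0.064 for miR-6391, -0.027 for miR-122-5p, -0.30 for miR-126-3p and -0.16 for let-7a-5p. Scan day as a block gave 0.18 for miR-451a, 0.13 for miR-144-3p, 0.11 for miR-16-5p, 0.13 for miR-92a-3p and 0.088 for miR-21a-5p. Quantile normalization gave 0.092 for miR-451a and normexp 0.0054 for miR-92a-3p. miR-122-5p was -0.086 with age, -0.083 with age and absorbance, -0.021 in mice of 6 and 12 weeks, -0.19 with the total gene signal, -0.094 with scaling on all miRNAs and -0.067 with the floor doubled. miR-126-3p was -0.051 with NeuT- mice only at 0 and -0.19 with scaling on all miRNAs, and let-7a-5p -0.022 with age, -0.028 with age and absorbance, -0.021 with NeuT- mice only and -0.22 with scaling on all. Over left-out mice miR-92a-3p ran from -0.34 to 0.036, miR-21a-5p from -0.26 to 0.086, miR-122-5p from -0.14 to 0.31, miR-126-3p from -0.051 to 0.24 and let-7a-5p from -0.070 to 0.17. Between ages, normexp gave -0.038 for miR-139-3p, -0.17 for miR-378a-3p and -0.11 for miR-6391, and the authors' deposited values 0.49 for miR-3106-5p, 0.60 for miR-344c-5p, 1.02 for miR-547-5p and 1.37 for miR-6394, which was 0.18 without scaling. miR-1a-3p ran from -0.31 to 1.67 over left-out mice. At 12 weeks, no scaling gave 0.17 for miR-18a-5p, 0.27 for miR-1931, 0.23 for miR-222-3p and 0.11 for miR-483-5p, which was 0.040 in the deposited table. In the held-out mice those values gave 0.30 for miR-1957a, 0.43 for miR-3070b-3p and 0.62 for miR-344c-5p.

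The difference in detected miRNAs ran from -58.9 to 67.5 over left-out mice. No paired analysis was possible because the labels give no replicate numbers shared between the groups. The number of mice with burden, 2 at each age, values near the floor and the missing unit of burden limit all of these comparisons.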

Other observations

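The NeuT+ mouse of 6 weeks with burden 0 lay within the range of the 7 NeuT- mice for 194 of the 270 tested miRNAs, below it for 46 and above it for 30. Its miR-1a-3p was at the floor.

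Over the 4 mice in ascending order of burden, 22 of the 270 miRNAs had strictly increasing and 11 strictly decreasing levels, an order in which both 6-week mice come before both 12-week mice, so that burden and age cannot be told apart in it. Among the 22 were miR-223-3p (-2.09, -1.42, -0.29 and -0.05), miR-22-3p (-3.51, -3.41, -2.18 and -1.92), miR-5105 and miR-877-5p, and the smooth muscle miRNA miR-145a-5p. miR-22-3p, which represses estrogen receptor alpha, was detected in both 12-week mice with burden and in neither of 6 weeks. In the 12-week mice at 0 it was at -2.63, -2.51 and -2.69, and its effect there of 0.56 ± 0.19 did not pass (SE; limma adjusted p = 0.0889).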
